A study of Mus musculus with 9 samples.

Results

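Glycosaminoglycans are long sulfated sugar chains carried by proteoglycans, and the genes described here encode 40 of the enzymes and transporters that build them. The set was taken as a list of gene symbols. Its values came from probe sets that the array's annotation gives to 1 of those symbols and to no other gene. With 76 such probe sets, 38 of the 40 genes were measured. Xylt1 and Ndst1 are not analysed here. The 38 fell into 4 linker enzymes, 14 heparan sulfate enzymes, 14 chondroitin and dermatan sulfate enzymes and 6 genes of sulfate and sugar donor supply, out of 18193 genes tested on the array. The samples were 3 of condyle, the jaw side of the temporomandibular joint, 3 of fossa, its socket in the skull, and 3 of whole body, the tissue against which both were set, all from mouse embryos at embryonic day 16.5. All 9 entered as laser-captured fresh frozen tissue, with no genotype, strain or treatment other than this in the labels. The series describes the samples of a tissue as biological replicates. The labels do not say which embryo each sample came from, or whether embryos were pooled. A p-value here thus reflects only the spread among these 9 samples. Each sample was hybridised to 1 Affymetrix array with 45101 probe sets.

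Chain synthesis starts on a short linker of xylose, galactose and glucuronic acid that is shared by heparan and chondroitin sulfate. Polymerases then extend the chain with alternating sugars, an epimerase converts part of the glucuronic acid to iduronic acid, and sulfotransferases place sulfate at set positions. The sulfate comes from the donor PAPS (3′-phosphoadenosine 5′-phosphosulfate), and the sugars come as nucleotide sugars made in the cytosol and carried into the Golgi. Cartilage matrix is rich in chondroitin sulfate on aggrecan, while heparan sulfate at the cell surface binds growth factors such as fibroblast growth factors, Hedgehog proteins and BMPs.

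Intensities are given as log2 values on the authors' deposited scale, and a gene is represented by its brightest probe set. A gene was above background on an array when it exceeded all 27 Bacillus subtilis control probe sets there. A difference was called when its Benjamini-Hochberg adjusted p over all 18193 genes was under 0.05 in limma, fitted once to all 9 arrays. The share of probe sets above background ran from 45.4% to 46.9% in condyle, from 30.3% to 43.8% in fossa and from 37.4% to 45.9% in whole body, with fossa array 1 lowest. On that array 23 of the 38 enzyme genes were above background, against 28 to 35 on the other 8. Chondrocyte markers bore out the joint labels, with 10 of 14 called higher in condyle and 10 of 14 in fossa than in whole body. Their summed intensity was 11739.9 to 22890.6 in condyle, 9991 to 29326.5 in fossa and 1323 to 1364.1 in whole body. Each sample is a mixture of cells, so more cells of a type and more RNA per cell cannot be told apart. Condyle and fossa are each set against the same 3 whole body arrays, so those comparisons are not independent of each other.

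RefSeq promoters (build GRCm38.p6, 250 bases before the annotated start) were at hand for 32 of the 38 genes. They were GC-rich, with a median GC content of 65.4% against 52% over all 27025 promoters in the table. A GC box, written GGGCGG or CCGCCC so that both strands were searched, was in 25 of the 32 (78.1%) and in 8901 of all promoters (32.9%). Among the enzyme genes called in at least 1 comparison it was in 15 of 16 (93.8%). A match is a description of these letters only. The promoters of 4 genes are shown with GC boxes in capitals, those of the neighbouring 3-O-sulfotransferase genes that set condyle furthest apart from fossa, and those of a chondroitin sulfotransferase and a PAPS synthase called higher in both joint tissues.
Hs3st3a1, chr11:64435082-64435331, plus strand: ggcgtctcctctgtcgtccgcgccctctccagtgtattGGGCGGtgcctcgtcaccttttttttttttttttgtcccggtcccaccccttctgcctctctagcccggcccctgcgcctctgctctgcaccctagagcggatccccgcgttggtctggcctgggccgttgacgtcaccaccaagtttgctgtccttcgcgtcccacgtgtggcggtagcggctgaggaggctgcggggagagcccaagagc
Hs3st3b1, chr11:63922285-63922534, minus strand: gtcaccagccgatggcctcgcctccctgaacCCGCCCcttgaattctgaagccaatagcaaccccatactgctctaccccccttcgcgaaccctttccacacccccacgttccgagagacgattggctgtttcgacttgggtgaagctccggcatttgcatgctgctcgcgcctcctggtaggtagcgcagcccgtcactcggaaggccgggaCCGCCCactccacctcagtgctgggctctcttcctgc
Chst11, chr10:82985247-82985496, plus strand: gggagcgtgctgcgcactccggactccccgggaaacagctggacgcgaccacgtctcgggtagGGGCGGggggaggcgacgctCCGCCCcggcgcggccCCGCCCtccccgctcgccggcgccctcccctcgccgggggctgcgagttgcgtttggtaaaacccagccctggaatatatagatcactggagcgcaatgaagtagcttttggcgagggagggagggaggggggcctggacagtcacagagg
Papss2, chr19:32595465-32595714, plus strand: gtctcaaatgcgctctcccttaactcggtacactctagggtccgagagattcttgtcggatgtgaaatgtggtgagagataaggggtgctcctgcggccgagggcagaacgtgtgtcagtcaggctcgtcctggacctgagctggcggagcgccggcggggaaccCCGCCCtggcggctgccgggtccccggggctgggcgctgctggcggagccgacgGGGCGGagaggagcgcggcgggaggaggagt

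The Hs3st3a1 window held 1 GC box, that of Hs3st3b1 held 2, that of Chst11 held 3 and that of Papss2 held 2. Hs3st3a1 and Hs3st3b1 both lie on chromosome 11, with 1 coding gene, Cox10, between them.

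Of the 38 enzyme genes, 12 were called higher and 0 lower in condyle than in whole body, or 31.6%, where 13.2% of all genes were called (9.34% higher, 3.84% lower). For fossa against whole body 3 were higher and 4 lower, or 18.4%, where 19.6% of all genes were called (3.99% higher, 15.6% lower), so the share in fossa was near the background. Condyle was higher than fossa for 9 genes and lower for 0, or 23.7%, where 18.9% of all genes were called (16.8% higher, 2.13% lower). At an unadjusted limma p under 0.05, 18 genes were higher and 1 was lower in condyle than in whole body. At that threshold 6 were higher and 8 lower in fossa, and 15 were higher and 0 lower in condyle than in fossa. The share of all genes at that threshold was not counted, so these counts are a description only. Every condyle array lay above every whole body array for 18 genes and below for 4, against 19.8% and 33.4% of all genes. Fossa did so for 6 genes above and 7 below whole body, against 11.1% and 31.1% of all genes. Condyle lay above fossa in this way for 14 genes (33.9% of all genes) and below it for 0 (15.8%). The median log2 difference over the 38 genes was 0.70 for condyle against whole body, where that of all genes was -0.03. It was 0.01 for fossa against whole body (all genes, -0.11) and 0.65 for condyle against fossa (all genes, 0.21). Condyle thus lay above fossa over the array as a whole, and the enzyme genes have to be read against that shift. After quantile normalization of the arrays the enzyme median for condyle against fossa was 0.07 (all genes, -0.006). It was then 0.44 for condyle against whole body (all genes, -0.0006) and 0.24 for fossa against whole body (all genes, 0.002). Limma's F test for any difference among the 3 groups was passed by 16 of the 38 genes and by 28.1% of all genes. In all, 18 of the 38 genes were called in at least 1 comparison. The share of all genes was not counted for that. The other 20 were called in none.

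**Figure D1:**
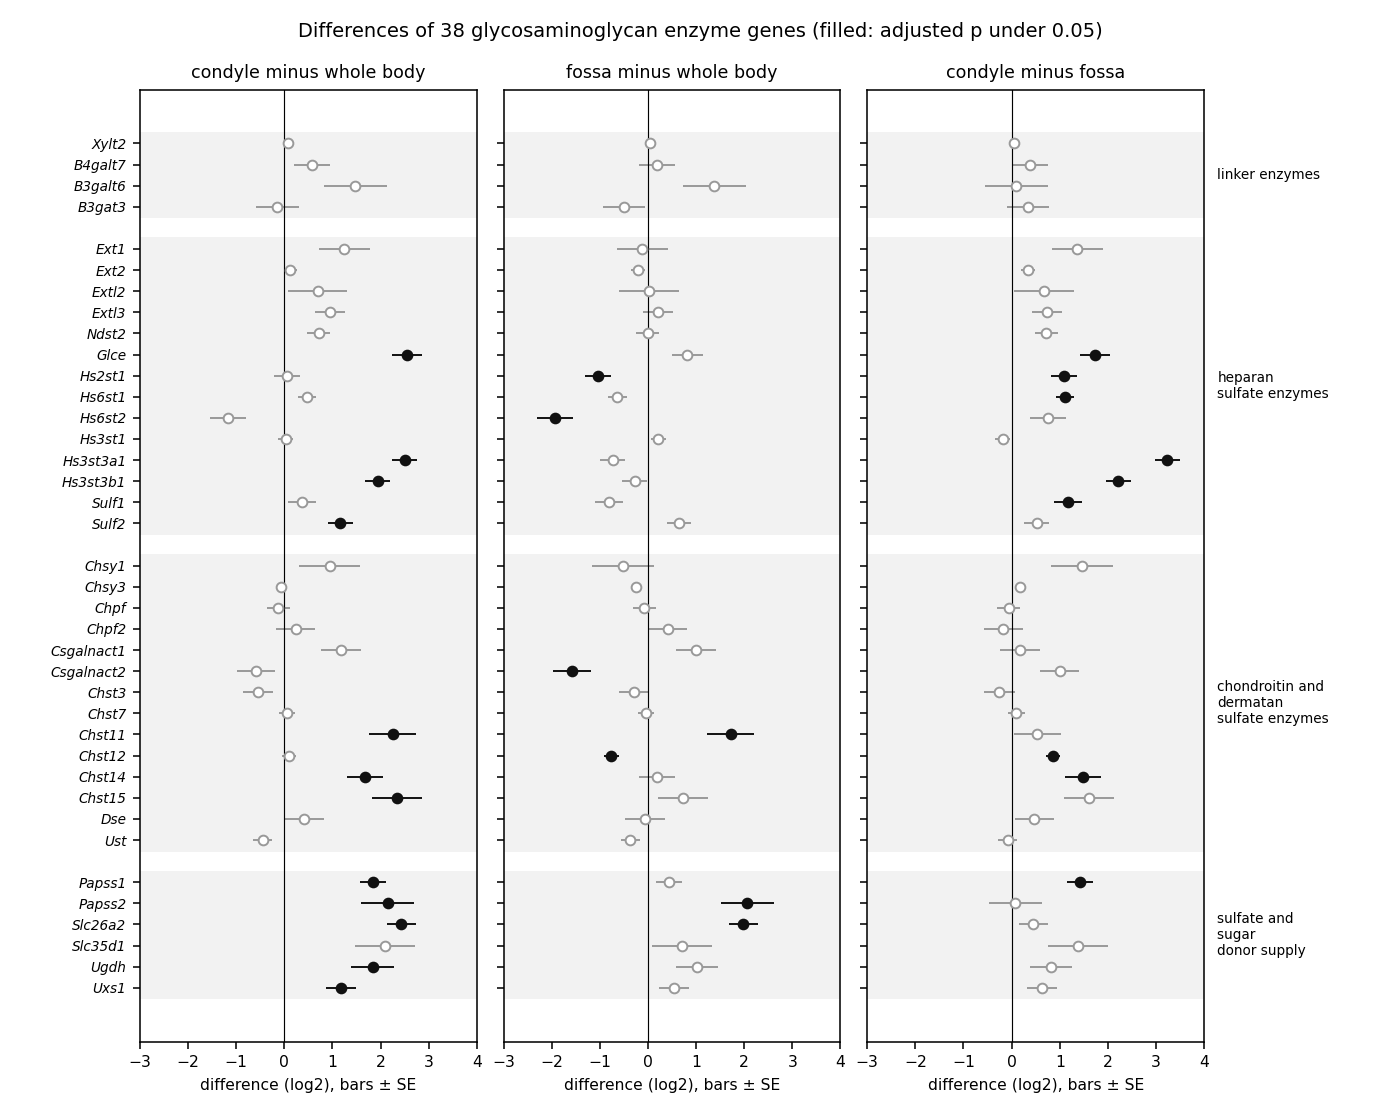
Log2 differences of the 38 measured genes (points, with bars of 1 SE from limma) of condyle over whole body, fossa over whole body and condyle over fossa, grouped by enzyme class; filled points have an adjusted p under 0.05. In condyle minus whole body 12 filled points lie right of 0 and 0 left of it, while fossa minus whole body has 3 on the right and 4 on the left.

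All 6 genes of sulfate and sugar donor supply had higher values on every condyle array than on any whole body array. Of the 6, 5 were called higher, with a class median of 1.97, where 9.34% of all genes were called higher. Quantile normalization left 2 of these 5, Papss1 and Slc26a2. In fossa 2 of the 6 were called higher, with a median of 0.87, where 3.99% of all genes were called higher. Between condyle and fossa 1 of the 6 was called, with a median of 0.73. That is 16.7%, where 18.9% of all genes were called, so it was near the background.

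Slc26a2, the plasma membrane sulfate transporter, read 8.50, 8.59 and 7.79 on the condyle arrays, 8.18, 7.66 and 7.68 on the fossa arrays and 6.07, 5.37 and 6.14 on the whole body arrays. Every joint array was above every whole body array, while condyle and fossa overlapped. It was higher by 2.43 ± 0.30 (SE) in condyle (5.41-fold, adjusted p = 0.00361) and by 1.98 ± 0.30 in fossa (3.95-fold, adjusted p = 0.0049). Condyle and fossa differed by 0.45, with a 95% interval of -0.25 to 1.15. A further Slc26a2 probe set above background gave 0.56 ± 0.34 in condyle and 0.79 ± 0.34 in fossa and was called in neither, and with the mean over its probe sets the differences were 1.22 (adjusted p = 0.0273) and 1.03 (adjusted p = 0.0345).

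The PAPS synthases make the sulfate donor from sulfate and ATP. Papss2, the form known for its role in growth cartilage, read 7.48, 7.27 and 5.89 in condyle, 6.69, 7.72 and 5.98 in fossa and 4.57, 4.57 and 5.04 in whole body. Both joint tissues lay above whole body without overlap, by 2.15 ± 0.55 in condyle (4.43-fold, adjusted p = 0.0442) and by 2.07 ± 0.55 in fossa (4.20-fold, adjusted p = 0.0382). Condyle minus fossa was 0.08, with a 95% interval of -1.21 to 1.37. Papss1, the more broadly expressed form, read 9.47, 9.17 and 9.04 in condyle, 7.75, 7.74 and 7.94 in fossa and 7.80, 6.74 and 7.59 in whole body. Its condyle arrays stood above all others, while fossa and whole body overlapped. It was higher in condyle than in whole body by 1.85 ± 0.27 (3.61-fold, adjusted p = 0.00677) and higher in condyle than in fossa by 1.42 ± 0.27 (2.67-fold, adjusted p = 0.014), and fossa minus whole body was 0.43 ± 0.27 (adjusted p = 0.309).

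Both sugar donor enzymes were called higher in condyle than in whole body. Ugdh oxidises UDP-glucose to UDP-glucuronic acid. It read 8.64, 8.06 and 8.20 in condyle, 7.08, 8.27 and 7.08 in fossa and 6.03, 6.11 and 7.25 in whole body, and was higher in condyle than in whole body by 1.83 ± 0.44 (3.57-fold, adjusted p = 0.0368). Uxs1 makes UDP-xylose, the first sugar of the linker, from UDP-glucuronic acid. It read 9.25, 8.90 and 8.25 in condyle, 7.67, 8.63 and 8.20 in fossa and 7.72, 7.58 and 7.56 in whole body, and was higher in condyle than in whole body by 1.18 ± 0.31 (2.27-fold, adjusted p = 0.0489). Fossa minus whole body was 1.02 ± 0.44 for Ugdh and 0.55 ± 0.31 for Uxs1, condyle minus fossa was 0.82 ± 0.44 and 0.64 ± 0.31, and none of these was called. Slc35d1 carries UDP-sugars for chondroitin synthesis into the endoplasmic reticulum. It was above background on 3 of 3 condyle arrays and 1 of 3 whole body arrays. It was at least 3.23-fold higher in condyle than in whole body, which was not called (adjusted p = 0.0727) but passed with the mean over its probe sets (adjusted p = 0.0282). After quantile normalization the Slc35d1 difference was 1.77 (adjusted p = 0.159).

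Of the 8 calls in this class, those of Slc26a2 in both joint tissues and of Papss1 in condyle against whole body were kept in each of 18 alternative analyses. Quantile normalization of the arrays ended those of Papss2 in condyle (1.71, adjusted p = 0.122), Ugdh (1.50, 0.0624), Uxs1 (0.97, 0.108) and Papss1 against fossa (0.77, 0.144). The Papss2 difference in condyle missed the threshold without condyle 1 or 2, fossa 1 or any whole body array (adjusted p up to 0.129), and that in fossa without condyle 2, fossa 1 or 2 or any whole body array (up to 0.103). Ugdh did so without any condyle array, fossa 3 or whole body 1 or 2 (up to 0.111), and Uxs1 without condyle 1 or 2, fossa 3 or any whole body array (up to 0.132). Papss2 in condyle also missed it with the mean over its 4 probe sets (0.55, adjusted p = 0.105). None of its other probe sets was above background on all 3 arrays of a group, so that mean takes in dim probe sets.

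**Figure D2:**
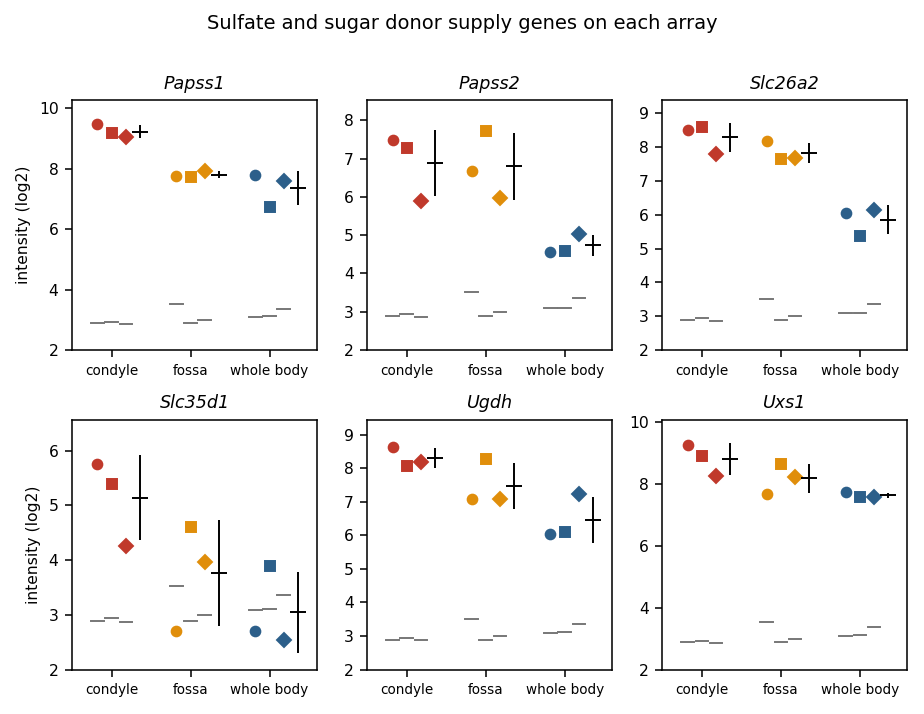
Log2 intensity of the 6 sulfate and sugar donor supply genes on each array of condyle, fossa and whole body (circle, square and diamond for arrays 1, 2 and 3); the black dash and bar are the mean ± SD of 3 arrays and grey ticks mark each array's background limit. Slc26a2 and Papss2 lie above whole body in both joint tissues, while Papss1 stands apart in condyle, at a mean of 9.22 against 7.81 in fossa and 7.37 in whole body.

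Of 14 heparan sulfate enzyme genes, 4 were called higher and 0 lower in condyle than in whole body (median 0.70), or 28.6%, where 9.34% of all genes were called higher. In condyle 6 were called higher and 0 lower than in fossa (median 0.92), or 42.9%, where 16.8% of all genes were called higher, and quantile normalization of the arrays left 3 of the 6. Glce, Hs3st3a1 and Hs3st3b1 were called in both comparisons. Of the other 3 called against fossa, Hs2st1, Hs6st1 and Sulf1, condyle minus whole body was 0.05, 0.47 and 0.36 (adjusted p = 0.906, 0.159 and 0.424). In fossa 0 were called higher and 2 lower than in whole body (median -0.16). That is 14.3%, where 19.6% of all genes were called (15.6% lower), so it was near or under the background. The called genes encode enzymes that modify the chain, and 0 of the polymerase genes were called.

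The 3-O-sulfotransferases Hs3st3a1 and Hs3st3b1, whose promoters are shown above, add a rare sulfate late in heparan sulfate synthesis. Hs3st3a1 read 6.22, 6.0 and 6.46 in condyle, 2.76, 3.52 and 2.70 in fossa and 3.94, 3.37 and 3.85 in whole body. All condyle arrays were above all others, and 1 of 3 fossa arrays was above background. Hs3st3a1 was higher in condyle than in whole body by 2.51 ± 0.26 (5.68-fold, adjusted p = 0.00203) and at least 7.37-fold higher in condyle than in fossa, with a measured difference of 3.24 ± 0.26 (adjusted p = 0.000872). Fossa minus whole body was -0.73 ± 0.26 (adjusted p = 0.0974). Hs3st3b1 showed the same order of condyle over the other tissues, with 5.52, 6.41 and 5.74 in condyle, 3.80, 3.75 and 3.47 in fossa and 3.79, 3.73 and 4.32 in whole body. It was higher in condyle by 1.94 ± 0.26 against whole body (3.85-fold, adjusted p = 0.00501) and by 2.22 ± 0.26 against fossa (4.66-fold, adjusted p = 0.00282), while fossa minus whole body was -0.28 ± 0.26 (adjusted p = 0.507). These 4 calls were kept in each of the 18 alternatives. Their size was not: with the mean over its probe sets Hs3st3b1 was 0.44 higher in condyle than in whole body (adjusted p = 0.0246) and 0.50 higher than in fossa (adjusted p = 0.0127), and after quantile normalization 1.54 higher than in fossa. None of the other Hs3st3b1 probe sets was above background on all 3 arrays of a group, so that mean takes in dim probe sets. Hs3st3a1 was 2.75 higher in condyle than in fossa after quantile normalization. With any 1 array left out, condyle minus fossa stayed between 3.09 and 3.50 for Hs3st3a1 and between 1.96 and 2.41 for Hs3st3b1. Hs3st1, which encodes another 3-O-sulfotransferase, was at background on all condyle and whole body arrays and above it on 1 fossa array.

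Glce encodes the epimerase that converts glucuronic to iduronic acid in heparan sulfate. Its brightest probe set read 7.97, 7.92 and 7.43 in condyle, 6.06, 6.17 and 5.89 in fossa and 4.53, 5.34 and 5.81 in whole body, so the 3 tissues did not overlap. It was higher in condyle by 2.55 ± 0.32 against whole body (5.84-fold, adjusted p = 0.0038) and by 1.73 ± 0.32 against fossa (3.32-fold, adjusted p = 0.0125). Fossa minus whole body was 0.82 ± 0.32 (adjusted p = 0.12). A dimmer Glce probe set did not follow, at -0.50 ± 0.16 for condyle minus whole body. With the mean over the 3 probe sets, condyle minus whole body was 0.43 (adjusted p = 0.329) and condyle minus fossa 0.51 (adjusted p = 0.252), and quantile normalization also ended the call against fossa (1.07, adjusted p = 0.0726) while fossa minus whole body passed under it (1.10, adjusted p = 0.0368).

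Of the 3 genes for 2-O- and 6-O-sulfotransferases, 2 were called lower in fossa than in whole body and 0 in condyle. Hs6st2, a 6-O-sulfotransferase, read 5.0, 4.61 and 5.96 in condyle, 4.24, 5.01 and 4.04 in fossa and 6.31, 6.47 and 6.31 in whole body. Every joint array was below every whole body array. It was lower in fossa by 3.82-fold (log2 difference -1.93 ± 0.38, adjusted p = 0.0132), a call kept in each of the 18 alternatives, at -0.60 with the mean over its probe sets (adjusted p = 0.00968). In condyle the difference from whole body was -1.17 ± 0.38 (adjusted p = 0.0902), and after quantile normalization it was -1.58 (adjusted p = 0.037), and condyle minus fossa was 0.76 ± 0.38 (adjusted p = 0.211). Hs6st1, a related 6-O-sulfotransferase, was dim, at 3.61, 4.07 and 4.40 in condyle, 2.81, 3.07 and 2.86 in fossa and 3.47, 3.62 and 3.56 in whole body, with 1 of 3 fossa arrays above background. It was at least 1.77-fold higher in condyle than in fossa (adjusted p = 0.0102). That call was lost when all arrays were given the same background floor (0.50, adjusted p = 0.159).

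Hs2st1, the heparan sulfate 2-O-sulfotransferase, read 8.91, 8.55 and 8.90 in condyle, 7.20, 7.85 and 8.04 in fossa and 9.05, 8.84 and 8.31 in whole body. Fossa was below both other tissues without overlap, while condyle and whole body overlapped. It was lower in fossa than in whole body by 2.05-fold (log2 difference -1.04 ± 0.27, adjusted p = 0.0368) and higher in condyle than in fossa by 2.13-fold (1.09 ± 0.27, adjusted p = 0.0328). After quantile normalization these were -0.49 (adjusted p = 0.274) and 0.42 (adjusted p = 0.446). The difference from whole body missed the threshold without any condyle array, fossa 1 or 2 or whole body 1 or 2 (adjusted p up to 0.102), and that between condyle and fossa without any condyle array, fossa 1 or 2 or whole body 2 (up to 0.0975). Of the further probe sets of Hs2st1, 1 gave 0.59 ± 0.16 for condyle minus fossa and was called (adjusted p = 0.0454), and another gave -0.02 ± 0.28 and was not called.

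Sulf1 and Sulf2 encode extracellular sulfatases that remove 6-O-sulfate from heparan sulfate. Sulf2 read 11.07, 10.97 and 10.09 in condyle, 10.08, 10.27 and 10.21 in fossa and 9.72, 9.36 and 9.54 in whole body, and both joint tissues lay above whole body on every array. It was higher in condyle than in whole body by 1.17 ± 0.25 (2.25-fold, adjusted p = 0.0266). In fossa its difference from whole body was 0.65 ± 0.25 (adjusted p = 0.124), and after quantile normalization 1.21 (adjusted p = 0.0202). Sulf1 read 8.56, 8.41 and 7.64 in condyle, 6.56, 7.18 and 7.33 in fossa and 7.96, 7.93 and 7.63 in whole body. Fossa lay below both other tissues without overlap. Sulf1 was higher in condyle than in fossa by 1.18 ± 0.29 (2.26-fold, adjusted p = 0.0321), but by 0.51 after quantile normalization (adjusted p = 0.383). The Sulf2 call was lost without condyle 1 or 2 or any whole body array (adjusted p up to 0.0832), and the Sulf1 call without condyle 1 or 2, fossa 1 or 2 or whole body 2 (up to 0.0968).

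**Figure D3:**
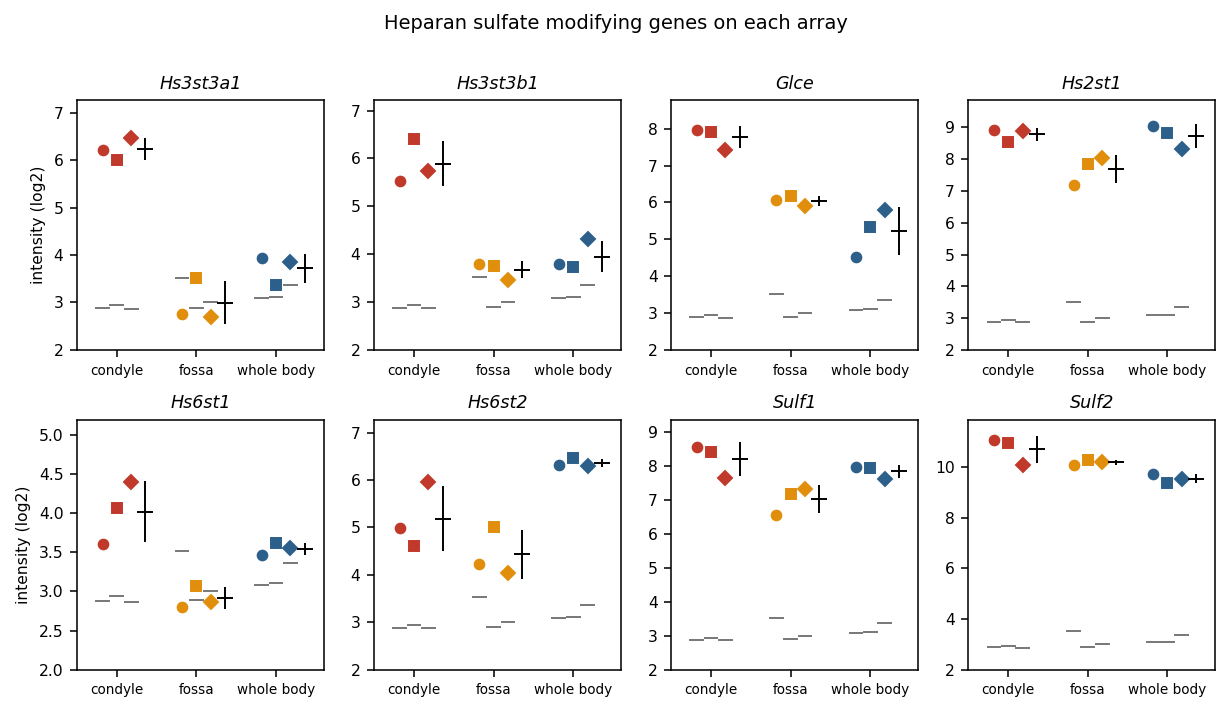
Log2 intensity of 8 heparan sulfate modifying genes on each array of condyle, fossa and whole body (circle, square and diamond for arrays 1, 2 and 3); the black dash and bar are the mean ± SD of 3 arrays and grey ticks mark each array's background limit. Hs3st3a1 averages 6.23 in condyle against 2.99 in fossa and 3.72 in whole body, and Hs6st2 is below whole body on all 6 joint arrays.

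Of 14 chondroitin and dermatan sulfate enzyme genes, 3 were called higher and 0 lower in condyle than in whole body (median 0.17), or 21.4%, where 13.2% of all genes were called. In fossa 1 was higher and 2 were lower than in whole body (median -0.07), also 21.4%, where 19.6% of all genes were called. Condyle was called higher than fossa for 2 genes and lower for 0 (median 0.32), or 14.3%, where 18.9% of all genes were called, so these last 2 shares were near or under the background. The genes called higher in condyle than in whole body, Chst11, Chst14 and Chst15, all encode sulfotransferases.

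Chst11 encodes the chondroitin 4-O-sulfotransferase whose loss in mice disturbs growth plate cartilage. Its brightest probe set read 9.51, 9.27 and 8.15 in condyle, 8.40, 9.20 and 7.74 in fossa and 7.05, 6.24 and 6.89 in whole body. Every joint array was above every whole body array, and condyle and fossa overlapped. It was higher by 2.25 ± 0.49 in condyle (4.77-fold, adjusted p = 0.026) and by 1.72 ± 0.49 in fossa (3.29-fold, adjusted p = 0.048), and condyle minus fossa was 0.53, with a 95% interval of -0.61 to 1.68. A further Chst11 probe set gave -0.0036 ± 0.074 in condyle and -0.06 ± 0.07 in fossa relative to whole body, and the mean over both gave 1.13 in condyle (adjusted p = 0.0342). A probe set annotated to Chst11 and another gene was left out. The condyle call was lost without condyle 1 or 2 or any whole body array (adjusted p up to 0.0811) and after quantile normalization (1.98, adjusted p = 0.0535). The fossa call was lost without condyle 1 or 2, fossa 1 or 2 or any whole body array (up to 0.134) but kept after quantile normalization (2.12, adjusted p = 0.0296).

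Chst14 adds 4-O-sulfate in dermatan sulfate, next to iduronic acid. It read 6.61, 6.69 and 6.01 in condyle, 4.48, 4.66 and 5.70 in fossa and 5.04, 4.30 and 4.96 in whole body, so condyle was above both other tissues without overlap. It was higher in condyle by 1.67 ± 0.37 against whole body (3.18-fold, adjusted p = 0.0294) and by 1.49 ± 0.37 against fossa (2.81-fold, adjusted p = 0.0337). Chst15 adds a further sulfate to chondroitin 4-sulfate. It read 7.65, 7.57 and 7.93 in condyle, 5.08, 6.84 and 6.40 in fossa and 5.87, 4.51 and 5.74 in whole body, and was higher in condyle than in whole body by 2.34 ± 0.52 (5.07-fold, adjusted p = 0.0283), or by 1.16 with the mean over its probe sets (adjusted p = 0.0305). Its condyle arrays were also above every fossa array, with a difference of 1.61 ± 0.52 (adjusted p = 0.0731). These 3 calls were lost after quantile normalization, at 1.19 (adjusted p = 0.114) and 0.76 (0.33) for Chst14 and 1.95 (0.0609) for Chst15. They were also lost without condyle 1 or 2 and, for Chst14, any whole body array (against whole body) or fossa 1 or 2 or whole body 3 (against fossa), with adjusted p up to 0.0993, and for Chst15 without condyle 3 or whole body 2 or 3 (up to 0.0868).

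Of the genes lower in fossa, Csgalnact2 encodes an N-acetylgalactosaminyltransferase that starts and extends chondroitin chains. It read 7.65, 7.31 and 7.15 in condyle, 5.48, 7.18 and 6.45 in fossa and 7.74, 7.92 and 8.21 in whole body. It was lower in fossa than in whole body by 3.00-fold (log2 difference -1.58 ± 0.40, adjusted p = 0.0329), and after quantile normalization it was -1.13 (adjusted p = 0.0722). That call was also lost without condyle 1 or 2, fossa 3 or any whole body array (adjusted p up to 0.0896). Condyle minus fossa was not called, but passed without fossa 2 (1.40, adjusted p = 0.0353). After quantile normalization, Csgalnact2 gave 0.28 for condyle minus fossa (adjusted p = 0.73). Its paralog Csgalnact1 was above whole body on every joint array, at 1.18 ± 0.42 in condyle and 1.01 ± 0.42 in fossa (adjusted p = 0.116 and 0.141). Chst12, another chondroitin 4-O-sulfotransferase, read 3.50, 3.49 and 3.49 in condyle, 2.65, 2.62 and 2.63 in fossa and 3.66, 3.52 and 3.01 in whole body, close to background throughout. With all fossa arrays at background, it was at least 1.20-fold lower in fossa than in whole body (adjusted p = 0.0148) and at least 1.28-fold higher in condyle than in fossa (adjusted p = 0.0114). Both calls were lost with the same background floor on all arrays, and the difference from whole body without whole body 2 (adjusted p = 0.0504).

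**Figure D4:**
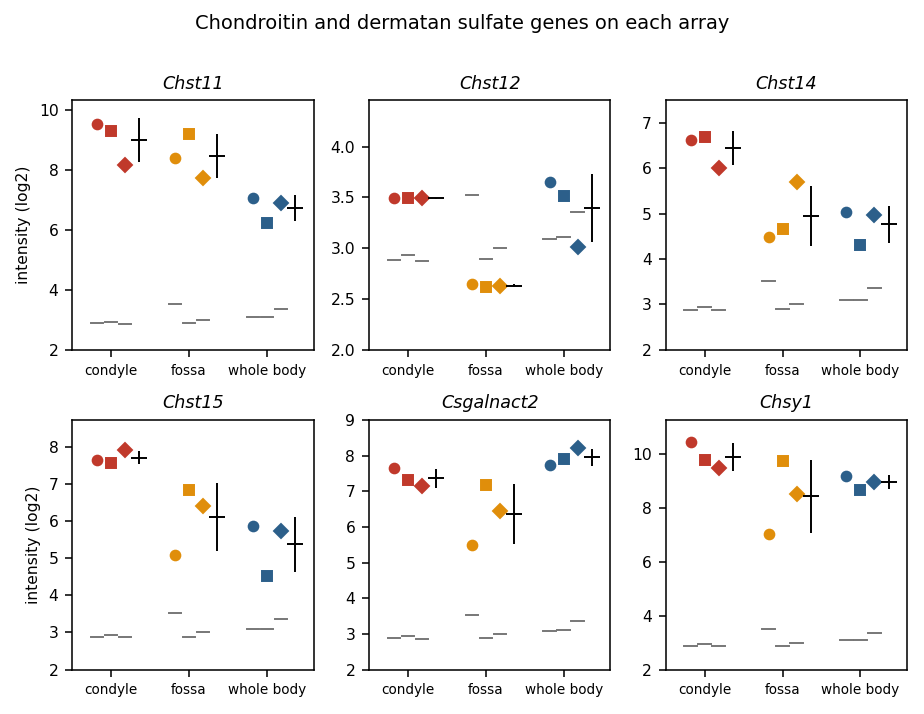
Log2 intensity of 6 chondroitin and dermatan sulfate genes on each array of condyle, fossa and whole body (circle, square and diamond for arrays 1, 2 and 3); the black dash and bar are the mean ± SD of 3 arrays and grey ticks mark each array's background limit. Chst11 lies above whole body in both joint tissues, Chst14 and Chst15 stand apart in condyle, and all 3 Chst12 fossa values lie under the limits of their arrays.

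The genes of the linker enzymes, of the chondroitin synthases Chsy1, Chsy3, Chpf and Chpf2 and of Ext1, Ext2, Extl2 and Extl3 gave no call. Chsy1, a chondroitin synthase, read 10.47, 9.76 and 9.47 in condyle, 7.04, 9.74 and 8.54 in fossa and 9.21, 8.68 and 8.98 in whole body. Its condyle arrays were above whole body, but the spread in fossa was wide and neither condyle minus whole body (0.94 ± 0.64, adjusted p = 0.355) nor condyle minus fossa (1.46 ± 0.64, adjusted p = 0.159) was called. Without fossa 2, condyle minus fossa was 2.11 and passed (adjusted p = 0.0389), while after quantile normalization it was 0.83 (adjusted p = 0.518). The other chondroitin polymerase genes, Chsy3, Chpf and Chpf2, ran from 2.51 to 4.23 over all arrays, near background, and were not called. Among heparan polymerase genes, Ext1 gave 1.25 ± 0.53 for condyle minus whole body (adjusted p = 0.176) and its partner Ext2 gave 0.13 ± 0.14 (adjusted p = 0.555). Ext1 was above background on 1 of 3 fossa arrays and was at least 2.08-fold higher in condyle than in fossa, which was not called (adjusted p = 0.119) but passed without fossa 2 (adjusted p = 0.0405). After quantile normalization, Ext1 gave 0.97 for condyle minus fossa (adjusted p = 0.359). Extl3, which adds the first N-acetylglucosamine of a heparan chain, gave 0.95 ± 0.31 (adjusted p = 0.0969), with condyle above whole body on every array, and was called with the mean over its probe sets (0.41, adjusted p = 0.0342). After quantile normalization, Extl3 gave 0.56 (adjusted p = 0.254). Ndst2, an N-deacetylase and N-sulfotransferase, gave 0.72 ± 0.24 (adjusted p = 0.0984), and Extl2 gave 0.69 ± 0.62 (adjusted p = 0.467).

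Of the 4 linker enzymes, 0 were called in any of the 3 comparisons and 0 had an unadjusted p under 0.05 in limma, and their medians were 0.32 in condyle and 0.11 in fossa relative to whole body, and 0.22 in condyle relative to fossa. B3galt6, the galactosyltransferase that adds the second galactose of the linker, read 5.95, 6.65 and 7.52 in condyle, 6.76, 6.05 and 7.03 in fossa and 3.97, 6.35 and 5.37 in whole body. Its differences from whole body, 1.48 ± 0.66 in condyle and 1.38 ± 0.66 in fossa, were within a wide whole body spread (adjusted p = 0.196 and 0.193). B4galt7, which adds the first galactose, read 5.32, 5.46 and 4.97 in condyle, 4.23, 5.46 and 4.90 in fossa and 4.53, 4.23 and 5.28 in whole body, with all 3 groups overlapping. B3gat3, which adds the closing glucuronic acid, gave -0.14 ± 0.44 in condyle and -0.49 ± 0.44 in fossa. Xylt2, which attaches the xylose to the core protein, was at background on all 9 arrays.

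The remaining chondroitin and dermatan genes Chst3 and Chst7 (6-O-sulfotransferases), Dse (a dermatan sulfate epimerase) and Ust (a uronyl 2-O-sulfotransferase) were called in no comparison. With the mean over probe sets Ust was called lower than in whole body in condyle (-0.37, adjusted p = 0.0428) and in fossa (-0.39, adjusted p = 0.0259). After quantile normalization these were -0.41 (adjusted p = 0.382) and -0.13 (adjusted p = 0.764). Chst3 and Chst7 were above background on 2 of 9 arrays each, so a difference in them was hardly detectable at this signal. Over all 38 genes, 23 were above background on all 9 arrays.

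Summed over a class, the enzyme levels followed the tissues to different degrees. The mean deviation of the 6 supply genes from their gene means was 1.32, 1.03 and 0.37 on the condyle arrays, -0.19, 0.57 and -0.06 on the fossa arrays and -1.05, -1.15 and -0.85 in whole body. For the 14 heparan sulfate enzymes it was 0.69, 0.67 and 0.58 in condyle, -0.67, -0.17 and -0.54 in fossa and -0.30, -0.21 and -0.04 in whole body. The supply class thus lay above whole body in both joint tissues, which overlapped, whereas the heparan class set condyle above fossa and whole body, which overlapped. For the 14 chondroitin and dermatan enzymes it was 0.45, 0.43 and 0.17 in condyle, -0.51, 0.26 and -0.27 in fossa and 0.00, -0.38 and -0.15 in whole body. In this class fossa overlapped both condyle and whole body. Fossa 2 was the highest fossa array in the heparan, chondroitin and supply classes, and fossa 1 the lowest.

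**Figure D5:**
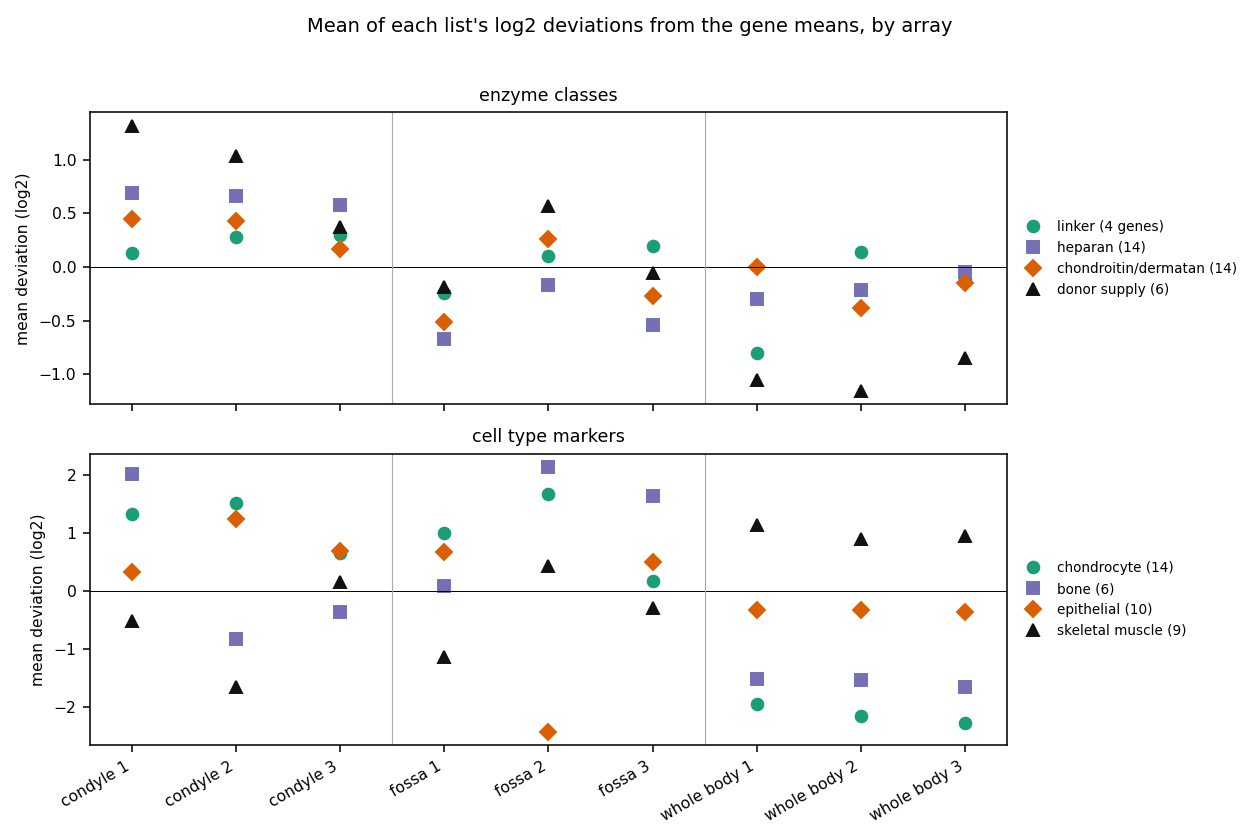
Mean log2 deviation from each gene's mean over 9 arrays, per array of condyle, fossa and whole body, for the 4 enzyme classes (top) and for chondrocyte, bone, epithelial and skeletal muscle markers (bottom), with the number of genes in brackets. The heparan class is above 0 on all 3 condyle arrays and below 0 on the other 6, and epithelial markers fall to -2.42 on fossa array 2.

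Markers of other cells varied within and between the joint tissues. Epithelial markers, 10 genes of which Cldn4 was at background throughout, summed to 5180 to 12862.9 in condyle, 479 to 10509.2 in fossa and 3996 to 4366 in whole body. The low value was that of fossa array 2. For condyle against fossa 1 of the 10 was called, Epcam, higher in condyle by 1.17 ± 0.13 (adjusted p = 0.00216). Bone markers, 6 genes with 0 called between condyle and fossa (1 lower at an unadjusted p under 0.05), summed to 5155 to 23678.8 in condyle, 7366 to 26491.7 in fossa and 1871 to 2352 in whole body. Of 9 skeletal muscle markers 0 were called between the joint tissues (0 at an unadjusted p under 0.05), and their sums were 554 to 3920 in condyle, 1227 to 5170 in fossa and 8771 to 9683 in whole body. In each joint tissue 6 of 7 liver markers and 4 of 5 red cell markers were called lower than in whole body. The liver markers summed to 968, 3545 and 38606 on condyle arrays 1, 2 and 3 and to 87.3, 55.5 and 34281.9 on the fossa arrays. In whole body they summed to 70421.8 to 80713.6, so condyle 3 and fossa 3 held far more of this signal than the other joint arrays. Between condyle and fossa 1 of the 7 was called, higher in condyle. The 2 chondrocyte markers called between the joint tissues were Sox9, higher in condyle by 2.32 ± 0.33, and Sox6, higher by 1.15 ± 0.23. The part of any of these cell types in the enzyme differences was not tested.

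RNA quality and signal also differed between groups. The 18S ribosomal RNA control probe set read 5.90 to 9.66 in condyle, 7.30 to 9.75 in fossa and 14.27 to 14.42 in whole body, so it set whole body apart from both joint tissues in every comparison made with it. Its part in those differences was not tested. The log2 gap between 3′ and 5′ Gapdh control probe sets was 5.33 to 6.86 in condyle, 3.69 to 5.31 in fossa and 5.34 to 6.52 in whole body. The 75th percentile of an array's log2 values averaged 4.85 over the condyle arrays, 4.18 over the fossa arrays and 4.45 over the whole body arrays. Quantile normalization, which removes such gaps, gave 7 of 38 enzyme genes called for condyle against whole body (6 higher, 1 lower). It gave 7 for fossa against whole body (5 higher, 2 lower) and 4, all higher, for condyle against fossa. Of all genes, 8.96%, 17.1% and 6.48% were called under it in these comparisons. New calls were Hs6st2, lower in condyle than in whole body, and Glce and Sulf2, higher in fossa than in whole body. The genes called higher in condyle than in fossa under quantile normalization were Hs6st1, Hs3st3a1, Hs3st3b1 and Chst12. Among all called genes it moved the share that was higher to 50.4% from 70.9% for condyle against whole body, to 47.4% from 20.4% for fossa against whole body and to 58.1% from 88.8% for condyle against fossa. Centring each array on its median left the enzyme counts at 12, 5 and 9, while the shares of all called genes that were higher became 78.8%, 44.7% and 83.2%. Without fossa array 1, the number of enzyme genes called was 4 in place of 7 for fossa against whole body and 6 in place of 9 for condyle against fossa.

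Genes that act beside these enzymes were read from lists of the same pathway. Their calls, and those of the core protein, hyaluronan and cell marker lists, were not followed through the alternative analyses. Of 19 other genes of chain synthesis and sulfation, 1 was called higher and 1 lower in condyle than in whole body, 0 higher and 2 lower in fossa, and 2 higher and 1 lower in condyle than in fossa. The shares called were 10.5%, 10.5% and 15.8%, where 13.2%, 19.6% and 18.9% of all genes were called in these comparisons. Fam20b, the kinase that phosphorylates the linker xylose, was higher in condyle than in whole body by 1.34 ± 0.24 (2.53-fold, adjusted p = 0.0143). Ugp2, which makes the UDP-glucose that Ugdh uses, differed from whole body by -1.30 ± 0.17 in condyle (adjusted p = 0.00466) and by -1.88 ± 0.17 in fossa (adjusted p = 0.000741), so it was lower in both. Ugdh itself was higher in condyle, so these neighbouring steps differed in direction. Dsel, a dermatan sulfate epimerase, was higher in condyle than in fossa by 1.57 ± 0.24 (2.98-fold, adjusted p = 0.00631). Slc35b2, the Golgi PAPS transporter, was at least 2.37-fold higher in condyle than in fossa (adjusted p = 0.0233) and at least 2.03-fold lower in fossa than in whole body (adjusted p = 0.0418).

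Of 14 genes of glycosaminoglycan breakdown, 2 were called higher and 0 lower in condyle than in whole body, 0 higher and 1 lower in fossa, and 4 higher and 0 lower in condyle than in fossa. The shares called were 14.3%, 7.14% and 28.6%, where 13.2%, 19.6% and 18.9% of all genes were called in these comparisons. Hyal2, a hyaluronidase, read 7.28, 7.73 and 7.11 in condyle, 5.35, 5.45 and 5.89 in fossa and 5.97, 6.66 and 6.40 in whole body. It was higher in condyle by 1.81 ± 0.25 against fossa (3.51-fold, adjusted p = 0.00449) and by 1.03 ± 0.25 against whole body (adjusted p = 0.0356). Glb1, the lysosomal beta-galactosidase, was at least 2.17-fold higher in condyle than in fossa (adjusted p = 0.0113) and at least 2.07-fold higher than in whole body (adjusted p = 0.0244). Sumf2, related to the factor that activates sulfatases, was higher in condyle than in fossa by 1.27 ± 0.27 (adjusted p = 0.0204). In this comparison genes of synthesis and of breakdown were both called higher in condyle, among 16.8% of all genes.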

How the data were processed

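The authors deposited linear intensities for each array and probe set, which ran from 3.25 to 67158.9. The submitters' processing notes name limma without a version. Background correction, normalization and probe summary are steps not given in the sources used here, and the deposited scale was kept. Intensities were converted to log2 (floor of 1, which 0 values were under). Gene names came from the array's annotation table, in which 34945 probe sets had 1 symbol, 932 several and 9160 none, beside 64 controls. RefSeq changed 0 symbols. Each of 18193 genes took its brightest probe set by the mean over all 9 arrays, and 23 of the 38 enzyme genes had several. Other probe sets above background on all 3 arrays of a compared group were examined. The mean over probe sets also takes in probe sets that were not above background.

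Genes were tested with lmFit and eBayes of limma version 3.58.1 in R version 4.3.3, in 1 fit of 3 groups and 9 arrays (6 residual and 1.12 prior degrees of freedom), with Benjamini-Hochberg adjustment over all genes and a threshold of 0.05. The procedure was tested on simulated data. Where the dimmer group had 0, or 1 to 2, of its 3 arrays above background, the fold printed is a lower limit ("at least"): the brighter group's mean against the higher of the array's limit and the dimmer value, averaged over arrays. The number of arrays limits the precision. A ± value is an SE from the fit beside a difference, and an SD of 3 arrays beside a mean.

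The enzyme genes and all lists were chosen with earlier results of these data known. Named with all 9 values were genes called in at least 1 comparison and the 2 brightest of each class; from other lists up to 4 genes with the largest differences. Alternatives covered quantile normalization, median centring, a common background floor (3.52 on the log2 scale), leaving out genes at background, the mean over probe sets, testing all probe sets, fitting only the groups compared, a trended robust prior, the replicate number as a block, and each array left out. Single calls were followed through them for the enzyme genes only.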

Additional observations from a re-analysis of the deposited data

How the results depend on the processing

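Of 28 calls of enzyme genes, 8 were kept in all 18 alternatives, 13 with each array left out in turn and 15 after quantile normalization, and no call changed direction. For condyle against whole body (12 enzyme genes called), quantile normalization gave 7, and leaving out 1 array gave 5 to 13: 6 without condyle 1, whole body 1 or whole body 3 and 5 without condyle 2 or whole body 2. For fossa against whole body (7 called), the common floor gave 2, and leaving out 1 array gave 2 to 8: 4 without fossa 1, 3 without condyle 2 or whole body 1 and 2 without whole body 2. For condyle against fossa (9 called), quantile normalization and the common floor each gave 4, and leaving out 1 array gave 6 to 10, with 6 without condyle 1, condyle 2 or fossa 1. The F test (16 called) gave 10 after quantile normalization, 6 with the common floor and 8 to 14 with 1 array left out: 8 without condyle 1, condyle 2 or whole body 2, 9 without whole body 1 and 10 without whole body 3. Over all genes, the common floor gave 1891 calls for fossa against whole body, in place of 3559, and 1825 for condyle against fossa, in place of 3440, where quantile normalization gave 1178. Leaving out 1 array gave 1470 to 2591 calls for condyle against whole body, 2343 to 3352 for fossa against whole body and 2086 to 3515 for condyle against fossa, the first at 1491, 1585, 1561 and 1470 without condyle 1, 2, 3 and whole body 2, the second at 2343 without fossa 3, and the third at 2086, 2241, 2238 and 2234 without condyle 1, 2, 3 and fossa 3. With the replicate block the enzyme counts were 7, 3 and 9 for condyle against whole body, fossa against whole body and the F test. The labels do not say that the numbers pair the samples. Deviations of same-numbered arrays correlated at -0.44 to 0.15 (9 pairs, 1 over 0.1) and those of other pairs at -0.17 to 0.44. The highest were condyle 1 with fossa 2 and condyle 2 with fossa 1, both at 0.44. These correlations cannot decide whether samples were paired, under these numbers or others. With the mean over probe sets, Chst11 in fossa was 0.83, Papss2 in fossa 0.58, Uxs1 in condyle 0.68 and Hs2st1 in fossa -0.33, none of them called. The cause was not tested in any of these. Genes within reach of an array's background limit, such as Chst12, Hs6st1, Chst3, Chst7 and Xylt2, are limited by signal.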

Other observations

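The chains are carried by core proteins. Of 12 chondroitin and dermatan sulfate core protein genes, 4 were called higher and 1 lower in condyle than in whole body (median 1.02), 4 higher and 1 lower in fossa (median 0.94), and 0 either way between condyle and fossa (median 0.21; 2 higher at an unadjusted p under 0.05 in limma). The shares called were 41.7%, 41.7% and 0%, where 13.2%, 19.6% and 18.9% of all genes were called in these comparisons. Acan, the aggrecan core, was at least 86.2-fold higher in condyle (adjusted p = 0.00187) and at least 71.4-fold higher in fossa (adjusted p = 0.00132). Cspg4, a transmembrane proteoglycan, was higher by 3.70 ± 0.54 in condyle and 3.26 ± 0.54 in fossa. Bgn, the small proteoglycan biglycan, was higher by 3.09 ± 0.31 and 2.21 ± 0.31. Srgn, the proteoglycan of blood cell granules, was lower in both, at -3.92 ± 0.73 and -3.82 ± 0.73. Among 14 heparan sulfate core protein genes, 2 were called higher in condyle, 1 in fossa and 2 in condyle over fossa, with 0 lower in each. Those shares, 14.3%, 7.14% and 14.3%, were near or under those of all genes. Gpc4, a glypican, was higher by 2.31 ± 0.39 in condyle (adjusted p = 0.0112) and 1.78 ± 0.39 in fossa (adjusted p = 0.02).

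Hyaluronan is made without a core protein or sulfate. A list of 9 genes covered hyaluronan and keratan sulfate synthesis, together with Cemip and Cemip2, which are not synthesis enzymes. Of these 9, 1 was called higher in condyle and 1 in fossa than in whole body, in both cases Cemip2. In fossa 2 were called lower than in whole body, and 2 were called higher in condyle than in fossa. The shares called were 11.1%, 33.3% and 22.2%, where 13.2%, 19.6% and 18.9% of all genes were called in these comparisons. Has2, a hyaluronan synthase, read 6.37, 5.94 and 5.62 in condyle, 3.24, 3.43 and 3.19 in fossa and 4.73, 4.65 and 5.79 in whole body. The tissue groups did not overlap except for 1 whole body array among the condyle values. Has2 was at least 6.05-fold higher in condyle than in fossa (adjusted p = 0.00322) and at least 3.19-fold lower in fossa than in whole body (adjusted p = 0.011). Cemip2, a cell surface hyaluronan-binding protein, was higher by 1.10 ± 0.21 in condyle (adjusted p = 0.0174) and 1.03 ± 0.21 in fossa (adjusted p = 0.0157).

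Of 7 endothelial markers 0 were called in condyle or in fossa against whole body. At an unadjusted p under 0.05 in limma, 0 differed in condyle, while 2 were higher and 1 was lower in fossa. Pecam1 alone was called lower in condyle than in fossa, by 0.19 on the log2 scale (adjusted p = 0.0433). At background in both groups were 4 of the 7 for condyle against whole body, and 3 in each comparison with fossa. A difference in those was hardly detectable. Of 6 macrophage and leukocyte markers and 5 neuron and glia markers 0 were called by limma in the 3 comparisons. At an unadjusted p under 0.05, 3 of the macrophage and leukocyte markers were lower in condyle and 1 in fossa than in whole body, and 0 of the neuron and glia markers differed.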
